A study of Mus musculus with 32 samples.

Results

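The genes described here are 36 mouse genes of mitosis and of the passage from G2 phase into it, listed by symbol and then looked up in the deposited expression tables. All 36 were found among the 50686 genes of the count table. All 36 also passed the filter on low counts in each of the 3 fits used below, in which 13088, 12409 and 12460 genes were tested. They comprise 9 cyclins, kinases, phosphatases and regulators of mitotic entry, 7 genes of the spindle checkpoint and the anaphase-promoting complex, 5 kinetochore and centromere genes, 3 of the chromosomal passenger complex, 5 spindle motors and assembly factors, 5 cytokinesis genes, and Mki67 and Top2a, which act on the chromosomes themselves.

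A cell enters mitosis when Cdk1, bound to a cyclin of the A or B type, is freed of inhibitory phosphates by the Cdc25 phosphatases. The spindle checkpoint then holds the anaphase-promoting complex in check until the kinetochores of every chromosome are attached to microtubules, after which cyclin B is destroyed and the cell divides. Transcripts of these genes accumulate in G2 phase and mitosis and are scarce in resting cells. In a bulk sample their level depends on the share of cells in that part of the cycle and on the amount in each. Neither was measured here. In the intestinal crypt both the Lgr5-positive stem cells at the base and their early progeny divide, whereas mature epithelial cells have left the cycle.

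The libraries were made from polyadenylated RNA of cells sorted from mouse intestinal crypts of the C57BL6 strain. Stem cells had a high signal from the Lgr5 green fluorescent reporter and progenitors a low one, and both gates kept live EpCAM+ cells with low or absent CD24 and without CD31, Ter119 or CD45. Wild-type mice carried Villin-CreER and Lgr5-GFP-IRES-CreER, and Cpt1a-deficient mice carried Cpt1afl/fl with the same 2 transgenes, so every mouse in the study had both inducible Cre drivers and the reporter. The Villin promoter drives Cre throughout the intestinal epithelium, so the deletion was not limited to stem cells. Cpt1a encodes the carnitine palmitoyltransferase of the outer mitochondrial membrane, which commits long-chain fatty acids to oxidation. Both genotypes were split between a high-fat diet and the control diet for it. The 2 populations, 2 genotypes and 2 diets gave 8 groups of 4 libraries, 32 in all, with 2 female and 2 male samples labelled in each group and no age given. A table column names the group of its library, without sex or replicate, and the letters a to d used here follow the order of the columns and are not replicate numbers of the labels. In all 8 groups libraries a and b had more Xist, and c and d more Ddx3y. Nothing in the labels says whether a stem cell and a progenitor library came from the same mouse.

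Library totals ran from 3307711 to 7337425 counts, with a median of 5655066.5. Cpt1a was measured at 118.8 to 346.6 CPM (counts scaled to library size, with the library sizes adjusted by the trimmed mean of M-values method) in the wild-type libraries and at 18.82 to 30.57 in the Cpt1a-deficient libraries, so the genotype labels held in every library. Lgr5 was at 282.3 to 515.2 CPM in the stem cell libraries and 11.93 to 85.71 in the progenitor libraries. Epcam was between 1904 and 2762 CPM throughout, and the blood marker Ptprc and the endothelial marker Pecam1 reached at most 0.67 and 1.23 TPM (the length-corrected share of all transcripts). Progenitor libraries had more RNA of differentiated cells. The summed level of 9 goblet cell markers was 17300 to 37900 TPM in progenitors against 685 to 2190 in stem cells, and that of 7 Paneth cell markers was 7720 to 55400 against 542 to 7730. The sums of 10 enterocyte markers, 1190 to 13500 against 481 to 3640, overlapped between the populations, whereas those of 8 enteroendocrine markers, 630 to 1500 against 6.67 to 95.5, did not. These sums therefore move with the population in every comparison of stem cells with progenitors below, and their part in the mitotic genes' values was not tested. In such bulk samples, fewer dividing cells and less of the transcript in each dividing cell cannot be told apart.

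All 36 genes were expressed in all 32 libraries, and the lowest count in any library was 51, for Cdc25c. On the TPM scale, which is per transcript length, the mean level over the 32 libraries ran from 9.056 for Cenpe to 293.4 for Ube2c. Of the 36 genes, 31 lay above the median of the genes tested (19.8 TPM) and 8 above the 90th percentile. The highest were Ube2c, the ubiquitin-conjugating enzyme of the anaphase-promoting complex, Bub3, a checkpoint protein that reads kinetochore attachment (282.8), Cdk1 itself (260.7), and Cdc20, the activator of the anaphase-promoting complex (252.4). Cyclin B1 (Ccnb1) stood at 247.2 TPM, the passenger protein Birc5, or survivin, at 218.7, cyclin B2 (Ccnb2) at 204.5 and cyclin A2 (Ccna2) at 158.2. At the other end were Foxm1, the transcription factor that activates many of the others (16.63), the large kinetochore protein Cenpf (15.4), Mki67, the Ki-67 protein that coats mitotic chromosomes (9.892), and the kinetochore motor Cenpe. The whole set made up 0.287% to 0.43% of all transcripts in the group means on this scale. The sum was 3917 ± 556, 3741 ± 546, 3709 ± 699 and 4295 ± 443 TPM (SD, n = 4) in stem cells of wild-type control, wild-type high-fat, Cpt1a-deficient control and Cpt1a-deficient high-fat mice. In progenitors it was 3154 ± 209, 2869 ± 434, 3304 ± 421 and 2887 ± 302 TPM in the same order. A TPM sum also depends on what else is in the library, and the median gene was 0.27 higher in stem cells on the log2(TPM + 1) scale against 0.02 on the scaled counts. The comparisons below therefore use scaled counts.

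Between libraries of the same group, the 36 genes moved together. After each group's mean was subtracted, the log2 CPM of the 630 pairs of these genes had a median Pearson r of 0.74 across the 32 libraries, with quartiles of 0.61 and 0.82. Of these pairs, 83.8% had r above 0.5, against 3.44% of all pairs of genes tested, whose median was 0. The closest pair was Plk1, the kinase that drives mitotic entry and centrosome maturation, and Prc1, which bundles the microtubules of the central spindle (r = 0.94). The loosest was Cdc25c with Mki67 (r = 0.17). By the median r with the other members, Prc1 was the most typical gene (0.83), and Foxm1 (0.42), Cdc25b (0.44) and Mki67 (0.47) were the least. The points share their library and its scaling, so these values describe the 32 libraries. Shifts shared by libraries of the same letter were not subtracted. Library d had a higher mean log2 CPM of the 36 genes than library c in every group. The part of such shifts in these r values was not tested. The spread itself was ordinary. The SD within groups was 0.13 log2 units for Bub3, the steadiest, to 0.31 for Ndc80, a subunit of the microtubule-binding kinetochore complex, with a median of 0.23, the same as over all genes tested.

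The promoters of these genes are shown as a description, and their part in the shared movement of the genes was not tested. As background, G2/M genes are repressed in resting cells by the DREAM complex and activated in cycling cells by B-Myb and Foxm1 through a short element, the cell cycle genes homology region, whose usual core is TTTGAA and less often TTCGAA, and they often carry CCAAT boxes bound by NF-Y just upstream. RefSeq promoters (GRCm38.p6, 250 bases before to 50 after the start) were given for 29 of the 36 genes. Below, in the direction of transcription from 100 bases before the start to 30 after, are Cenpf, Ect2, Ttk, Prc1 and Top2a, which had more RNA in stem cells, Ccnb2, which showed no such difference, and Birc5, the only gene called lower there. Capitals mark TTTGAA or CCAAT, or the same motifs read on the other strand, as TTCAAA or as ATTGG.
Cenpf, chr1:189688057-189688186, minus strand: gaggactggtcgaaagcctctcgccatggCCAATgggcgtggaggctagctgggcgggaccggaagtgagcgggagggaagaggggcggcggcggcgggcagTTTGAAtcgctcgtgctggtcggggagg
Ect2, chr3:27153825-27153954, minus strand: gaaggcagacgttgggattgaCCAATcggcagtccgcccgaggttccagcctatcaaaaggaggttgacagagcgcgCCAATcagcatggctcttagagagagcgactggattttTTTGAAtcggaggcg
Ttk, chr9:83834589-83834718, plus strand: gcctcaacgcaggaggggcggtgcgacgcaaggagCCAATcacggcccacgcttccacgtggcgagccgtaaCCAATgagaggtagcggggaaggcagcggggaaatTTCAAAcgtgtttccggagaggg
Prc1, chr7:80294351-80294480, plus strand: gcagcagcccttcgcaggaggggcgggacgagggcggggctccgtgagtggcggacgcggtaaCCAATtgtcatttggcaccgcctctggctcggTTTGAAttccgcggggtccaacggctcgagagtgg
Top2a, chr11:99024160-99024289, minus strand: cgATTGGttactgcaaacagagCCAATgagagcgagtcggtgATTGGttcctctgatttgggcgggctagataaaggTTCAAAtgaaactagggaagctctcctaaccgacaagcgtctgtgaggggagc
Ccnb2, chr9:70421525-70421654, minus strand: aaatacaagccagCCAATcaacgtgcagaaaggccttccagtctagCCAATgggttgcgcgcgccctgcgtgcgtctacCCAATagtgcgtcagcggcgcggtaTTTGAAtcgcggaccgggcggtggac
Birc5, chr11:117849137-117849266, plus strand: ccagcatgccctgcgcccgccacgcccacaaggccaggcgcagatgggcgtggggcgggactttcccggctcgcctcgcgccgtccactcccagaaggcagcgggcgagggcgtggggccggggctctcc

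In the first 6 of these sequences the TTTGAA core lies within 50 bases of the start, with at least 1 CCAAT upstream of it. Of these only Ccnb2 was not called, so they do not compare called with uncalled genes. Bub1b, Nusap1 and Kif2c, called higher in stem cells, had neither motif whole in the same stretch. Nor did Nuf2, Mad2l1 and Ndc80, which were not called. Birc5 has neither motif in the stretch shown. Over the full 300 bases and on either strand, TTTGAA was found in 21 of the 29 promoters (72.4%, exact 95% interval 52.8 to 87.3), against 20.2% of the 27025 genes with a promoter in the table. TTCGAA, which reads the same on both strands, was found in 4 (13.8% against 1.8%), and CCAAT in 22 (75.9% against 41.1%). Both TTTGAA and CCAAT were found in 18 (62.1% against 7.97%). The same letters cannot match TTTGAA and TTCGAA at once, while a CCAAT match can share an end letter with either. Of the 31 matches to TTTGAA, 22 began within 50 bases of the start, in 19 genes; in Plk1 the match began 31 bases and in Aurka 33 bases after it. A match is a run of letters and not a measured binding site, and some genes were counted over more than 1 start. The 36 genes lie on 14 chromosomes, with at most 7 on 1 chromosome (chromosome 2).

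Over all 32 libraries, stem cells and progenitors had mitotic transcripts at closely similar levels on scaled counts. No gene of the 36 had a fold change above 1.49 there. Within 1 genotype and diet the largest log2 fold change was 0.70, that of Cenpf in Cpt1a-deficient mice on the high-fat diet. In the fit over all 32 libraries, 11 genes were higher in stem cells, 1 was lower and 24 were not called at an adjusted p of 0.05 (edgeR's quasi-likelihood test, Benjamini-Hochberg over 13088 genes). That is 33.3% of these genes against 63.5% of all genes tested, 32.5% higher and 31% lower, so the count higher is near the share of all genes and the count lower is below it. Their median log2 fold change was 0.12, with 28 positive and 8 negative, against 0.02 over all genes. The values ran from -0.23 to 0.57, and every 95% interval lay within a 2-fold change either way, the lowest bound being -0.42 and the highest 0.75. No member's libraries were separated between the populations (0 of 36, against 10.2% of all genes tested). DESeq2 called 11 higher and 2 lower (all genes in the same fit: 32% higher, 31.4% lower). limma on log2(TPM + 1) called 33 higher and 0 lower (58.2% and 15.1% of all genes). After each library was centred on its median gene, limma called 13 higher and 1 lower (27.4% and 30.8% of all genes).

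**Figure D1:**
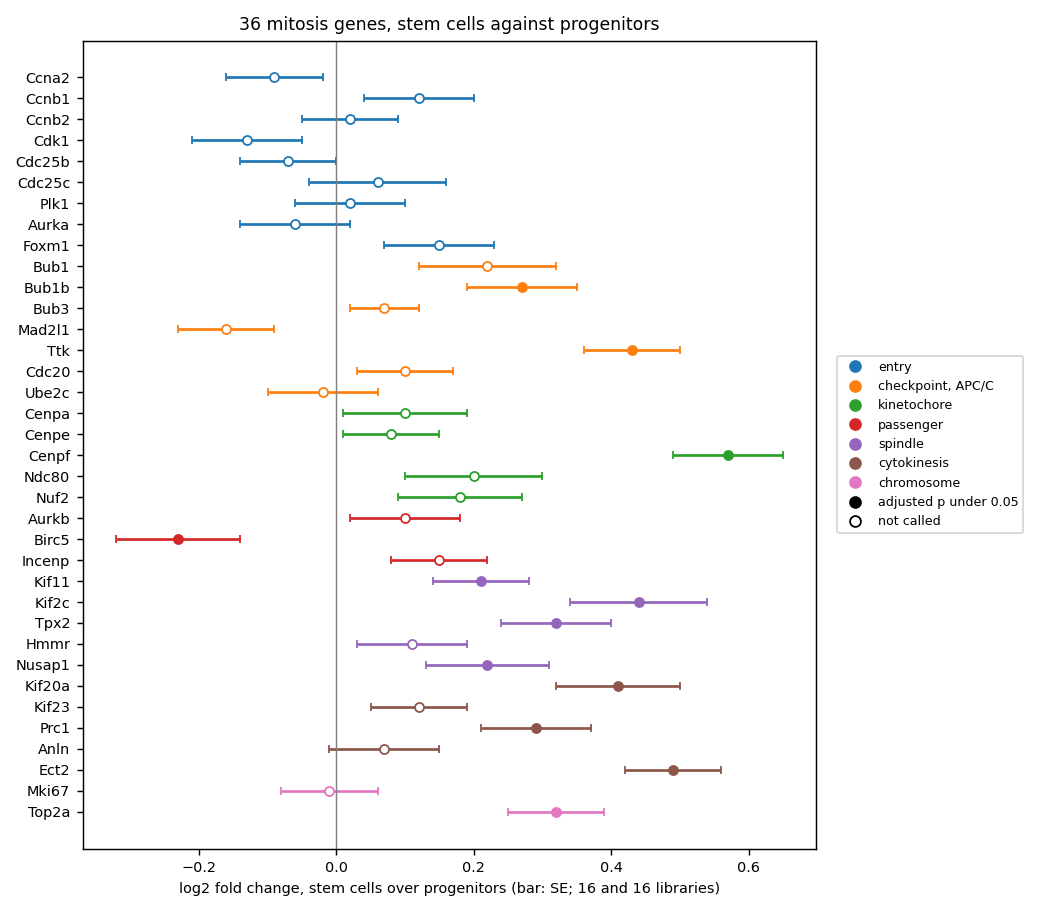
Log2 fold change of stem cells over progenitors for each of the 36 genes, with a bar of 1 SE either side (edgeR, 16 libraries of each population), coloured by role; filled points passed an adjusted p of 0.05. Cenpf (0.57) and Ect2 (0.49) lie farthest to the right, the 9 entry genes lie around 0, and Birc5 (-0.23, but 0.02 on the uncentred log2(TPM + 1) scale) is the filled point to the left.

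None of the 9 mitotic entry genes was called (63.5% of all genes tested were), and their median was 0.02. Cyclin B1, the main mitotic cyclin, was at 218.3 CPM in the lowest, 314.1 in the median and 367.9 in the highest of the 16 stem cell libraries, and at 214.9, 288.9 and 333.1 in progenitors. The libraries overlapped almost wholly. Its log2 fold change was 0.12, that of Ccnb2 was 0.02, that of Ccna2 -0.09 and that of Cdk1 -0.13, the last pair being positive on the uncentred log2(TPM + 1) scale (0.19 and 0.17). The mitotic kinases Plk1 (0.02) and Aurka (-0.06, or 0.23 on that scale), the phosphatases Cdc25b (-0.07, or 0.18 on that scale) and Cdc25c (0.06), and Foxm1 (0.15, adjusted p = 0.0826 by edgeR) were not called either.

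Among the 7 checkpoint and anaphase genes, Ttk and Bub1b were higher in stem cells (32.5% of all genes tested were). Ttk (ENSMUSG00000038379, GRCm38 chromosome 9, 83834689 to 83872389) encodes Mps1, the kinase that starts the checkpoint at unattached kinetochores. It was at 36.6, 50.96 and 61.79 CPM in the lowest, median and highest stem cell library and at 30.18, 36.97 and 44.82 in progenitors. Most stem cell libraries lay above most progenitor libraries, with some overlap, and the log2 fold change was 0.43 ± 0.07 (SE, edgeR adjusted p = 9.14e-06). Bub1b, which encodes the BubR1 subunit that inhibits Cdc20, was 0.27 ± 0.08 higher (adjusted p = 0.00242). Bub1, the kinase that recruits BubR1, had a similar value (0.22) with a wider spread and was not called (adjusted p = 0.0613). The value for Mad2l1, which encodes the checkpoint protein Mad2, was -0.16 (adjusted p = 0.0575), or 0.11 on the uncentred log2(TPM + 1) scale. Bub3 (0.07), Cdc20 (0.10) and Ube2c (-0.02, or 0.28 on that scale) were not called.

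At the kinetochore, Cenpf had the largest fold change of the 36. The gene (ENSMUSG00000026605, GRCm38 chromosome 1, 189640606 to 189688086) was at 31.58, 47.85 and 60.81 CPM in the lowest, median and highest stem cell library and at 23.9, 29.23 and 38.68 in progenitors. The lower stem cell libraries overlapped the higher progenitor libraries. The log2 fold change was 0.57 ± 0.08, a 1.49-fold difference (edgeR adjusted p = 7.31e-07). The centromeric histone Cenpa (0.10), the motor Cenpe (0.08), and Ndc80 (0.20) and Nuf2 (0.18), which pair in 1 complex, were not called. In the passenger complex, which corrects faulty attachments, the kinase Aurkb (0.10) and its scaffold Incenp (0.15) were not called.

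Birc5 (ENSMUSG00000017716, GRCm38 chromosome 11, 117849251 to 117855743), the third subunit of that complex, was the single gene called lower in stem cells. It was at 100.9, 127.9 and 199.6 CPM in the lowest, median and highest stem cell library and at 115.1, 167.6 and 202.5 in progenitors. The 2 ranges overlapped over most of their length, and the log2 fold change was -0.23 ± 0.09 (edgeR adjusted p = 0.0365). On the uncentred log2(TPM + 1) scale the value was 0.02, and leaving out 1 library ended the call in 17 of 32 cases.

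Of the 5 spindle genes, 4 were higher in stem cells, where 32.5% of all genes tested were, and the list is short. Kif2c, a kinesin that takes microtubules apart at the centromere, was at 54.47, 84.71 and 105.7 CPM in the lowest, median and highest stem cell library and at 40.82, 60.25 and 83.63 in progenitors. Its log2 fold change was 0.44 ± 0.10 (edgeR adjusted p = 0.000246). Tpx2, which activates Aurora A on the spindle, was 0.32 ± 0.08 higher, Nusap1, which bundles spindle microtubules, 0.22 ± 0.09, and Kif11, the kinesin that pushes the spindle poles apart, 0.21 ± 0.07. The Nusap1 call was the weakest of these (adjusted p = 0.036) and was lost in 12 of the 32 fits without 1 library. Hmmr, a spindle-assembly factor, was not called (0.11).

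Of the 5 cytokinesis genes, again a short list, 3 were higher (32.5% of all genes tested). Ect2 (ENSMUSG00000027699, GRCm38 chromosome 3, 27097222 to 27153878), the exchange factor that activates RhoA at the cleavage furrow, was at 134.6, 185 and 245.7 CPM in the lowest, median and highest stem cell library. In progenitors it was at 97.95, 137.3 and 164.7 CPM. The median stem cell library exceeded every progenitor library, and the log2 fold change was 0.49 ± 0.07 (1.40-fold, edgeR adjusted p = 5.84e-07). Kif20a, a kinesin of the central spindle, was at 99.8, 138.5 and 191.5 CPM in stem cells and 78.33, 103.7 and 136.3 in progenitors, a difference of 0.41 ± 0.09. Prc1 was 0.29 ± 0.08 higher. Kif23, the kinesin of the centralspindlin complex (0.12), and Anln, the actin-binding protein anillin (0.07), were not called.

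The last pair of genes parted. Top2a, the topoisomerase that untangles sister chromosomes, was at 224.3, 299.2 and 392 CPM in the lowest, median and highest stem cell library and at 186.3, 237.8 and 285.9 in progenitors, with a log2 fold change of 0.32 ± 0.07 (edgeR adjusted p = 0.000113). Mki67, the usual marker of cycling cells, was at 51.53, 62.96 and 86.96 CPM in stem cells and 54.21, 63.04 and 77.7 in progenitors. The medians of Mki67 were nearly the same, and its log2 fold change was -0.01 ± 0.07 (adjusted p = 0.935), against 0.28 on the uncentred log2(TPM + 1) scale. Of the 12 genes called, Cenpf, Ect2, Ttk, Kif2c and Kif20a kept their calls under every alternative setting and in every fit without 1 library.

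**Figure D2:**
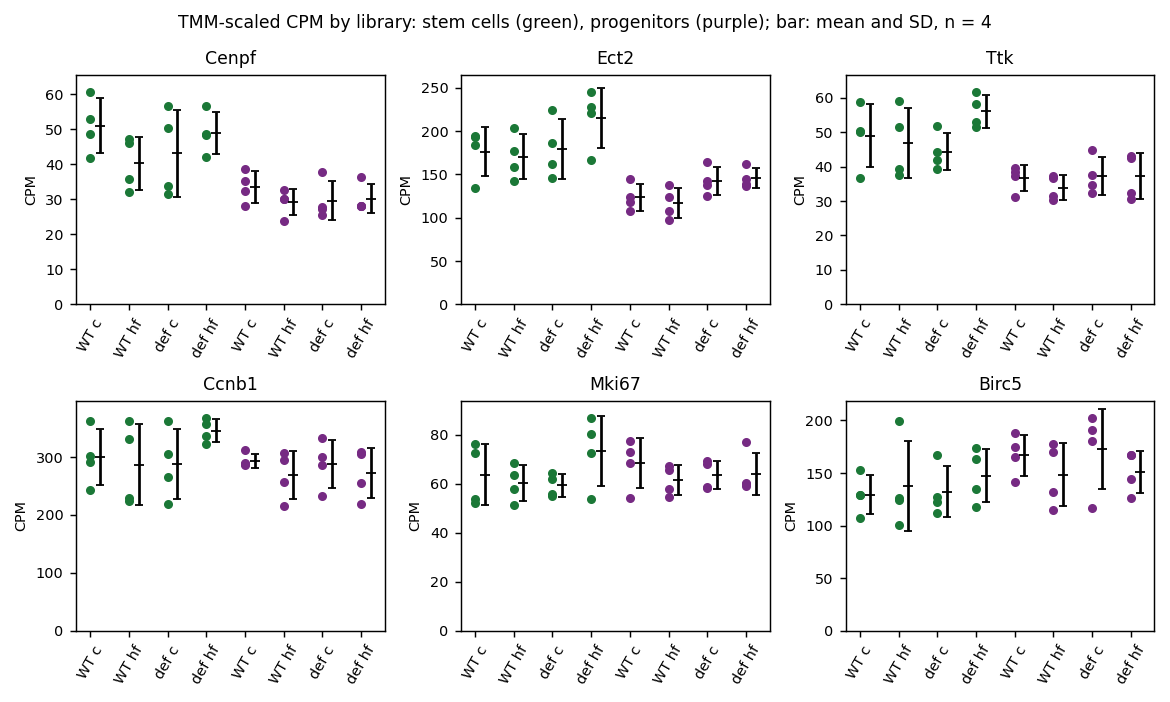
CPM of individual genes in each of the 32 libraries, by group (WT wild type, def Cpt1a-deficient, c control diet, hf high-fat diet; stem cells in green on the left of each panel, progenitors in purple on the right), with the mean and SD of 4 libraries beside them and axes from 0. Cenpf, Ect2 and Ttk sit higher in stem cells, Mki67 overlaps between the populations in every setting, Ccnb1 overlaps except in Cpt1a-deficient mice on the high-fat diet, and Birc5 sits lower in stem cells with wide overlap.

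The populations were also compared within each genotype and diet. In wild-type mice on the control diet, 5 genes were higher and 0 lower (Ttk, Cenpf, Kif2c, Ect2 and Top2a; 41.4% of all genes tested were called, 19.3% higher). In wild-type mice on the high-fat diet, 4 were higher and 0 lower (Ttk, Cenpf, Tpx2 and Ect2; background 37.3%, 17.3% higher). In Cpt1a-deficient mice on the control diet only Cenpf was called, with 14 positive and 22 negative values (background 36.8%, 17.3% higher). In Cpt1a-deficient mice on the high-fat diet, 13 were higher and 0 lower, and 35 of 36 values were positive (background 31.4%, 14.1% higher). There the stem cell and progenitor libraries did not overlap for 17 genes, all higher in stem cells. Of all genes tested 28.2% did not overlap, a share that counts both directions. The median of the 36 values in these 4 settings was 0.08, 0.12, -0.02 and 0.34. Cenpf was called in each of the 4, at 0.59 ± 0.17, 0.46 ± 0.17, 0.54 ± 0.17 and 0.70 ± 0.17. With 1 library left out the first 3 counts of genes higher ran from 2 to 7, 1 to 8 and 0 to 2, and Cenpf lost its call in Cpt1a-deficient control mice without stem cell library c or d or progenitor library b.

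In the Cpt1a-deficient mice on the high-fat diet, the 13 genes came from most roles. They were Foxm1 (0.40), the checkpoint genes Bub1b (0.46), Bub3 (0.26) and Ttk (0.59), Cenpf (0.70), Aurkb (0.42), the spindle genes Kif2c (0.59), Tpx2 (0.44) and Nusap1 (0.47), the cytokinesis genes Kif20a (0.61), Prc1 (0.47) and Ect2 (0.56), and Top2a (0.42). Kif20a was at 138.7, 139.9, 152 and 191.5 CPM in the 4 stem cell libraries and 88.84, 94.8, 103.7 and 120.6 in the progenitors, so all 4 stem cell libraries were above all 4 progenitor libraries. Ttk was at 51.56, 52.82, 58.06 and 61.79 CPM against 30.47, 32.33, 42.63 and 43.17, again with no overlap. Ccnb1, at 322.4, 336.8, 356.5 and 367.9 CPM against 218.8, 255.1, 305 and 309.1, also did not overlap, without passing the test. The number called rested on single libraries: it was 4 without stem cell library d or without progenitor library b of this group, and 7 without progenitor library c. Cenpf, Ttk, Ect2 and Kif20a were called in all 32 fits without 1 library.

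The test of the difference between these settings called nothing. The population by diet term had 0 of the 36 genes called and 0 of all 13088 genes tested (0%), with a smallest adjusted p among the 36 of 0.866 by edgeR. At an unadjusted p under 0.05 it had 7 of the 36 against 5.24% of all genes, and 35 of 36 values were positive with a median of 0.21. Within Cpt1a-deficient mice the same term had 0 called, 7 at an unadjusted p under 0.05 (2.96% of all genes) and a median of 0.35. The largest value was 0.62, and those of Aurkb and Ccna2 were 0.58 ± 0.22 and 0.53 ± 0.21. Within wild-type mice it had 0 called and 0 at an unadjusted p under 0.05 (3.23% of all genes). The population by genotype term had 0 called and 0 at an unadjusted p under 0.05 (3% of all genes). DESeq2 and limma also called 0 of the 36 in each of these terms. So 13 calls in one setting and 1 in another were not shown to differ.

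Neither diet nor loss of Cpt1a gave a called change in any of the 36 genes, in either population. Each comparison was fitted within 1 population (16 libraries). In stem cells, the percentage of all genes called was 0.25 for the high-fat against the control diet in wild-type mice, 0.0645 for the diet in Cpt1a-deficient mice, 0.242 for Cpt1a loss on the control diet and 0.443 for Cpt1a loss on the high-fat diet. In progenitors the same 4 comparisons had 0.0883, 0.313, 0.257 and 0.706 percent called. The counts for the 36 genes were 0 higher and 0 lower in all 8 by edgeR, DESeq2 and limma. All 36 intervals lay within a 2-fold change in each of the 8 comparisons, the widest reaching -0.83 and 0.91.

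In stem cells the median values for the high-fat diet had opposite signs in the 2 genotypes. In wild-type mice the median log2 fold change was -0.05, with 11 positive and 25 negative and 0 genes at an unadjusted p under 0.05 (11.7% of all genes). In Cpt1a-deficient mice it was 0.26, with all 36 positive and 4 at an unadjusted p under 0.05 (4.71% of all genes). The lowest p was that of Ccna2, which was at 279.5, 285.6, 299.1 and 313.9 CPM on the high-fat and 200.4, 214.5, 244.4 and 257.9 on the control diet. These libraries did not overlap (3.22% of all genes did not), and the log2 fold change was 0.37 ± 0.14, but it did not pass correction (adjusted p = 0.861 by edgeR). Ttk (0.35), Prc1 (0.33) and Mki67 (0.32) had unadjusted p-values under 0.05 as well. Markers of differentiated cells also had higher values on the high-fat diet in stem cells. Over the 10 enterocyte markers the median log2 fold change was 1.44 in wild-type mice and 1.17 in Cpt1a-deficient mice, with 1 called higher in each. The 9 goblet markers had medians of 0.97, with 1 called, and 0.58, all positive in both genotypes, and the 7 Paneth markers 0.86 and 1.21. The summed enterocyte markers were 481 to 736 TPM in stem cells of wild-type control mice and 1150 to 1740 in those given the high-fat food. In the Cpt1a-deficient genotype the sums were 671 to 869 and 2700 to 3640, without overlap in either genotype. Their part in the mitotic genes' values was not tested.

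For loss of Cpt1a in stem cells the median values also had opposite signs on the 2 diets. On the control diet the median was -0.11, with 8 positive and 28 negative and 0 at an unadjusted p under 0.05 (4.73% of all genes). On the high-fat diet it was 0.24, with all 36 positive and 3 at an unadjusted p under 0.05, namely Cenpe (0.34), Ccna2 (0.32) and Ect2 (0.33), against 6.38% of all genes. The diet comparison in Cpt1a-deficient stem cells and the genotype comparison on the high-fat diet share the 4 libraries of Cpt1a-deficient mice on the high-fat diet, and so does the population comparison with 13 calls. The diet by genotype term in stem cells had 0 called of the 36 and 0% of all genes, with all 36 values positive, a median of 0.31 and 2 genes at an unadjusted p under 0.05, Cenpe (0.50 ± 0.21) and Prc1 (0.47 ± 0.22), against 3.58% of all genes. Its smallest adjusted p was 0.999 by edgeR. For this term 6 of the 36 intervals reached beyond a 2-fold change, so it was measured less closely than the simple comparisons. Beside these genotype values, marker medians for Cpt1a loss in stem cells (control diet, then high-fat) were -0.19 and -0.76 for enterocytes. They were 0.05 and -0.17 for goblet cells and -0.63 and -0.41 for Paneth cells. The summed enterocyte markers went the other way. On the high-fat diet they were 2700 to 3640 TPM in Cpt1a-deficient and 1150 to 1740 in wild-type stem cells, without overlap. On the control diet they were 671 to 869 and 481 to 736 TPM in the same order, with overlap. The enterocyte list thus gave opposite directions as a median and as a sum. The part of the markers in the mitotic genes' values was not tested either.

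**Figure D3:**
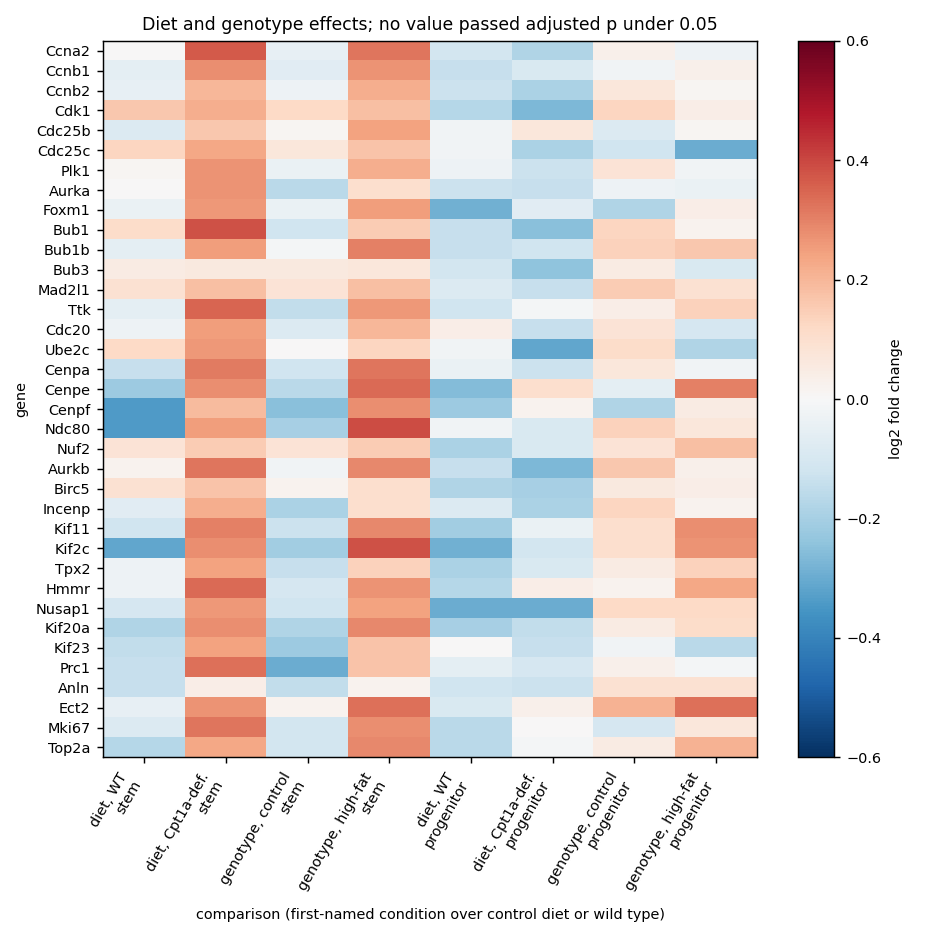
Log2 fold changes (colour: red above 0, blue below) of the 36 genes in rows and the 8 diet and genotype comparisons in columns. The values are all above 0 for the diet in Cpt1a-deficient stem cells (median 0.26) and for Cpt1a loss in stem cells on the high-fat diet (median 0.24), and mostly below 0 for the diet in progenitors; none passed an adjusted p of 0.05.

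In progenitors the medians were -0.13 for the high-fat diet in wild-type mice, with 34 of 36 negative, and -0.13 in Cpt1a-deficient mice, with 31 negative. Foxm1 was at 30.22, 30.76, 32.97 and 34.68 CPM on the high-fat and 36.91, 38.21, 39.22 and 42.44 on the control diet in wild-type progenitors, without overlap (4.01% of all genes did not overlap). Its log2 fold change was -0.29 ± 0.13, with an unadjusted p of 0.0425 and an adjusted p of 0.683 by edgeR, the single one of the 36 with an unadjusted p under 0.05 (7.06% of all genes). In Cpt1a-deficient progenitors Bub3 was at 210.7, 227.7, 230.7 and 234.6 CPM on the high-fat and 245.1, 259, 266.1 and 293.3 on the control diet, again without overlap (5.7% of all genes). Its value was -0.24 ± 0.08 (adjusted p = 0.348), and Bub3 and Aurkb were the 2 genes at an unadjusted p under 0.05 (9.77% of all genes). For Cpt1a loss in progenitors the median was 0.07 on the control diet, with 0 genes at an unadjusted p under 0.05 (5.8% of all genes), and 0.04 on the high-fat diet. There Ect2 (0.33 ± 0.12, adjusted p = 0.285 by edgeR) and Kif11 (0.28) had unadjusted p-values under 0.05 (10.6% of all genes). The diet by genotype term in progenitors had a median of -0.01, with 0 called and 0 at an unadjusted p under 0.05 (4.5% of all genes). The marker medians for the diet in wild-type and Cpt1a-deficient progenitors were 0.75 and 0.30 for enterocytes, 0.18 and 0.18 for goblet cells and 1.01 and 0.68 for Paneth cells. For Cpt1a loss in progenitors on the control and the high-fat diet they were 0.05 and -0.62, -0.34 and -0.29, and -0.15 and -0.12 in the same order of cell types. The summed enterocyte markers on the high-fat diet went the other way from their median. They were 8870 to 13500 TPM in Cpt1a-deficient and 2560 to 6060 in wild-type progenitors, without overlap. On the control diet they were 1640 to 5350 and 1190 to 2000 TPM, with overlap. The part of these shifts in the mitotic genes' values was not tested.

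The mean log2 CPM over the 36 genes shows how these shifts compare with the spread between libraries. In stem cells it was 6.68 ± 0.23, 6.61 ± 0.26 and 6.60 ± 0.25 (SD, n = 4) in wild-type control, wild-type high-fat and Cpt1a-deficient control mice, and 6.85 ± 0.12 in Cpt1a-deficient mice on the high-fat diet. The last group had the highest mean of the 8, but its libraries (6.75 to 7.02) overlapped those of the others, whose highest reached 6.92, 6.95 and 6.90. The next highest mean, that of wild-type control stem cells, lay below it by less than its own SD. These ranges and SDs mix libraries a to d. Compared within each letter, Cpt1a-deficient high-fat mice had the highest stem cell library every time. Theirs were at 6.75, 6.83, 6.79 and 7.02 in a to d, against 6.67, 6.38, 6.75 and 6.95 for the next highest. This ranking of the mean level was not tested. In progenitors the mean log2 CPM was 6.59 ± 0.10, 6.46 ± 0.20, 6.62 ± 0.21 and 6.52 ± 0.15 in the same order of groups.

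**Figure D4:**
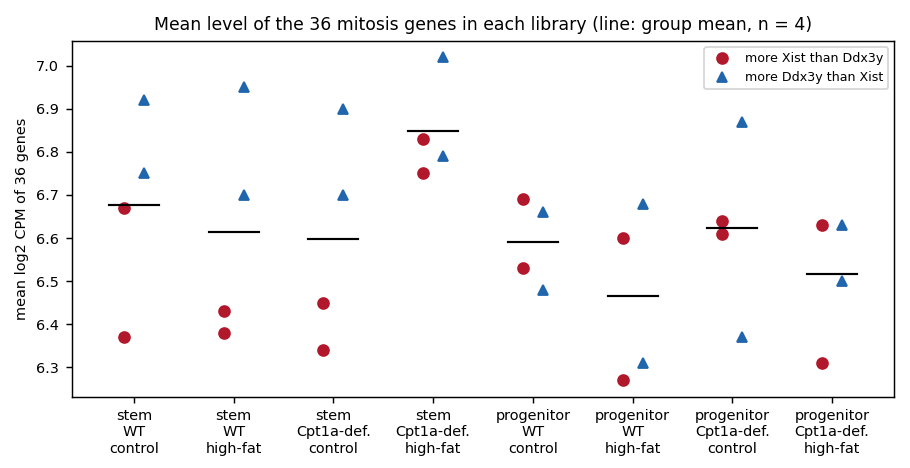
Mean log2 CPM over the 36 genes in each of the 32 libraries, by group, with lines for group means of 4 libraries and symbols for libraries with more Xist or more Ddx3y. Stem cell libraries with more Ddx3y (6.70 to 7.02) sit above most of those with more Xist (6.34 to 6.83), and no such order is seen in progenitors.

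A further difference in stem cells went with a split that the columns do not label. In each group 2 libraries had more Xist than Ddx3y, the first expressed from the inactive X chromosome and the second from the Y chromosome, and 2 had the opposite, matching the 2 female and 2 male samples labelled per group. In stem cells the mean log2 CPM of the 36 genes was 6.34, 6.44 and 6.83 in the lowest, median and highest of the 8 libraries with more Xist, and 6.70, 6.85 and 7.02 in the 8 with more Ddx3y. A term for this split, added to the stem cell fit after the values had been seen, was positive for 36 of 36 genes with a median of 0.31, against 0 over all genes. It called 6 genes higher with Ddx3y and 0 lower, against 0.733% of the 12409 genes tested, and 32 of 36 had an unadjusted p under 0.05 (10.2% of all genes). The test took the libraries as independent, although each set holds only 2 column letters, a and b or c and d. Library d was above c in every stem cell group, for example at 6.95 against 6.70 in wild-type high-fat mice. If libraries of the same letter are alike, these p-values are too small. Ndc80 was at 30.4, 35.9 and 51.2 CPM in the lowest, median and highest library with more Xist and at 46.7, 57.2 and 64.8 in those with more Ddx3y (0.55 ± 0.09, adjusted p = 0.00871 by edgeR). The others called were Bub1 (0.55), Bub1b (0.38), Aurkb (0.37), Kif11 (0.36) and Kif23 (0.31).

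In progenitors the same term called 0 of the 36, had 0 at an unadjusted p under 0.05 (11.2% of all genes) and a median of 0.05, with 0.177% of all genes called. The difference of the term between stem cells and progenitors was positive for all 36, and 19 had an unadjusted p under 0.05 (3.93% of all genes). Its test also took libraries of the same letter as independent. It called 0 of the 36 and 0% of 13088 genes, with a smallest adjusted p of 0.851 by edgeR, so a difference between the populations was not shown. Sex and anything else that the 2 sets of libraries share, such as a day of sorting, cannot be told apart here.

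The comparison of stem cells with progenitors was repeated within each set. Among the 16 libraries with more Xist, 5 of the 36 were higher in stem cells and 4 lower, against 23.6% and 25% of all genes in the same fit. Among the 16 with more Ddx3y, 19 were higher and 0 lower, against 25.9% and 25.4% of all genes. Birc5 had a log2 fold change of -0.42 in the first (edgeR adjusted p = 0.0028) and -0.04 in the second (adjusted p = 0.842), and Kif11, called higher over all libraries, had -0.01 in the first. Cenpf, Ect2, Ttk, Kif2c and Kif20a were called higher in both sets. With the Xist level as a covariate, 15 were higher and 1 lower, against 33% and 31.4% of all genes.

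Other cell cycle genes, in lists chosen for their function, give the setting for these values. Of 115 further mitosis genes, 114 were tested, and 46 were higher in stem cells and 5 lower (all genes: 32.5% higher, 31% lower), with a median of 0.13, close to the 0.12 of the 36. The 4 with the lowest adjusted p were Psrc1, a microtubule-associated protein (1.22 ± 0.09), Wee1, the kinase that places the inhibitory phosphate on Cdk1 (0.99 ± 0.07), and Cdc23 (0.40 ± 0.05) and Cdc16 (0.30 ± 0.04), both subunits of the anaphase-promoting complex. Psrc1 and Wee1 thus exceeded the largest value among the 36, that of Cenpf. Of 40 DNA replication and S-phase genes, 17 were higher and 2 lower against the same shares of all genes, with a median of 0.15; the polymerase subunits Pold1 (0.37) and Pola2 (0.35) and the helicase subunit Mcm2 (0.39) were higher, and Rrm2, a subunit of ribonucleotide reductase, was lower (-0.76 ± 0.09).

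The remaining lists cover entry into the cycle and cell identity. Of 18 G1 cyclins, kinases and E2F-Rb genes, 5 were higher and 7 lower (32.5% and 31% of all genes), among them Cdk6 (1.17 ± 0.09), which drives G1, and E2f2 (-1.57 ± 0.13), Ccnd3 (-0.57 ± 0.06) and E2f8 (-0.62 ± 0.07). Of 6 Cdk inhibitor genes tested out of 7, 0 were higher and 4 were lower in stem cells, with a median of -1.50. They were Cdkn2b (-4.93 ± 0.20), which blocks Cdk4 and Cdk6, Cdkn1a (-2.91 ± 0.14), Cdkn1c (-2.61 ± 0.15) and Cdkn2d (-0.40 ± 0.11). All 11 markers of stem cells rose with the reporter (median 1.81), and all 9 goblet (median -4.40), 7 Paneth (median -2.92) and 8 enteroendocrine cell markers (median -5.28) were lower, as were 8 of 10 enterocyte markers (median -1.80) and 5 of 5 tuft cell markers tested (median -2.50). The tuft marker sums were 3.49 to 11.3 TPM in stem cells and 10.3 to 28.5 in progenitors. Of 9 blood and endothelial markers, 1 passed the filter and was lower in stem cells (-2.44), and their sum was at most 14.2 TPM. The sort was set on Lgr5, so the stem cell markers are not independent of it.

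**Figure D5:**
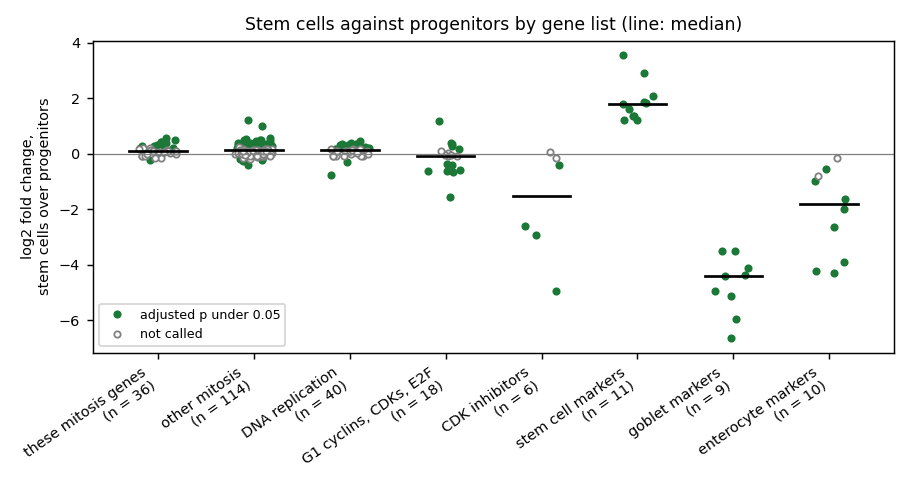
Log2 fold change of stem cells over progenitors for each tested gene of the cell cycle lists and of the stem cell, goblet cell and enterocyte markers (each point a gene, filled where the adjusted p was under 0.05; line at the list median). The mitotic and replication lists gather near 0 (medians 0.12 to 0.15), while the Cdk inhibitors (median -1.50) and the stem and differentiation markers spread far to either side.

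For diet and Cpt1a loss the further mitosis genes gave few calls. Of the 114 tested, 2 were higher for Cpt1a loss in stem cells on the high-fat diet (0.443% of all genes were called). For Cpt1a loss in progenitors 1 was higher on each diet (0.257% of all genes on the control and 0.706% on the high-fat diet), with 0 lower. In the other 5 simple comparisons 0 were called, against 0.0645% to 0.313% of all genes. Their medians were -0.01 for the diet in wild-type and 0.18 in Cpt1a-deficient stem cells, and -0.02 and 0.15 for Cpt1a loss in stem cells on the control and the high-fat diet, in the same order of signs as the 36 genes. Between stem cells and progenitors, 16, 21, 7 and 27 of the 114 were higher in wild-type control, wild-type high-fat, Cpt1a-deficient control and Cpt1a-deficient high-fat mice, and 3, 2, 3 and 0 lower. Of all genes tested, 19.3%, 17.3%, 17.3% and 14.1% were higher in the same settings, and 22%, 20.1%, 19.5% and 17.3% lower.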

How the data were processed

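Per the labels, polyadenylated RNA of sorted cells was prepared with TRI reagent and a Clontech kit. Per the submitters' processing notes, STAR 2.5.3a, RSEM 1.3.0 and SAMtools 1.3 were used with mm10; the annotation, the strand setting and the roles of the tools are not given in the sources used here. The authors deposited estimated counts per gene (expected counts, as RSEM gives) and log2 values, log2(TPM + 1). From these, counts were rounded, genes kept by filterByExpr (minimum count 10), scaled by TMM and tested with edgeR 4.0.16 (quasi-likelihood, robust, Benjamini-Hochberg, threshold 0.05) in R 4.3.3: all 32 libraries for stem cells against progenitors and its interactions, 16 of 1 population for diet and genotype. DESeq2 1.42.0 and limma 3.58.1 served as alternatives, and the tests were checked on simulated data. Log2 CPM used a prior count of 1. Rows without a symbol held 0.0677% of counts. The planned sex covariate and replicate block could not be fitted, since the columns carry neither; a block by run of column numbers was added. Where samples share no stated animal, p-values measure the spread between these samples, which may be technical. All 36 genes could be named, and up to 4 genes of each other list, those with the smallest adjusted p. The genes and lists were chosen with earlier results of these data known.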

Additional observations from a re-analysis of the deposited data

Results flagged for a closer look

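In 12 of 296 sets of 4 libraries (36 genes and the mean level of each, in 8 groups), 1 library stood apart from the other 3 by Dixon's 95% criterion; chance flags about 1 in 20 sets. All values are log2 CPM. In wild-type control stem cells, Cdc25c was at 4.77 in library d against 4.08 to 4.13 in the others, and Ect2 was at 7.07 in library b against 7.52 to 7.60. In wild-type high-fat stem cells Anln was at 5.51 in library a against 5.86 to 5.92, and in Cpt1a-deficient high-fat stem cells Plk1 was at 7.71 in library d against 7.33 to 7.40. In wild-type control progenitors Ccnb1 was at 8.29 in library d against 8.16 to 8.18, and Top2a was at 8.08 in library a against 7.86 to 7.88. In Cpt1a-deficient control progenitors, library d was high for Kif2c (6.39 against 5.88 to 5.95) and Kif20a (7.09 against 6.69 to 6.73). In Cpt1a-deficient high-fat progenitors, library b was low for Aurka (6.28 against 6.61 to 6.66) and Tpx2 (6.12 against 6.46 to 6.50), and library d was high for Cenpf (5.19 against 4.81 to 4.83) and Mki67 (6.27 against 5.89 to 5.92).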

How the results depend on the processing

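No paired analysis was possible because the columns of the tables carry no replicate number. Their serial numbers run through the 8 groups 4 times, and a block for these runs (libraries a to d), whose meaning the labels do not give, was added after seeing the data. With it 15 genes were higher and 2 lower (Birc5 and Mad2l1) over all libraries (all genes: 34.1% higher, 32.4% lower). In wild-type control mice 8 were higher and 2 lower (21.6% and 24.1%), and in wild-type high-fat mice 11 were higher (19.6%). In Cpt1a-deficient control mice 2 were higher and 4 lower (19.5% and 21.4%), and in Cpt1a-deficient high-fat mice 21 were higher (15.9%). For diet, genotype and the interactions the fit with the block called 0 of the 36 (smallest adjusted p 0.0994 by edgeR). At an unadjusted p under 0.05 it had 27 for the diet in Cpt1a-deficient stem cells (6.71% of all genes), 21 for Cpt1a loss in stem cells on the high-fat diet (8.95%), 22 for diet by genotype in stem cells (5.84%), 13 for population by diet (7.9%) and 21 for that term in Cpt1a-deficient mice (4.53%). Counts of the 36 genes called between stem cells and progenitors (11 higher, 1 lower) changed by more than 1.5 times as follows. limma on log2(TPM + 1) gave 33 higher and 0 lower, against 58.2% and 15.1% of all genes (all-gene median 0.27 in place of 0.02). It turned the sign of Ccna2 (0.19), Cdk1 (0.17), Aurka (0.23), Ube2c (0.28), Birc5 (0.02), Mki67 (0.28), Cdc25b (0.18) and Mad2l1 (0.11), all 8 that were negative on scaled counts. Libraries with more Xist alone gave 5 higher and 4 lower (all genes: 23.6% and 25%), with Kif11 at -0.01. Those with more Ddx3y alone gave 19 and 0 (25.9% and 25.4%). DESeq2 gave 2 lower (31.4% of all genes) and no filter on low counts 0 lower (14.2%). The percentages that follow are the shares of all genes called in the same direction and fit. In wild-type control mice (5 higher) limma gave 17 (38.6%), limma centred on the median gene 3 (13.9%), no filter 3 (7.1%) and libraries with more Xist 0 (7.93%). In wild-type high-fat mice (4 higher) limma gave 22 (38%), centred limma 2 (13.6%), the Xist covariate 7 (17.7%) and libraries with more Xist 0 (7.97%). In Cpt1a-deficient control mice (1 higher, 0 lower) limma gave 7 (32.1%), centred limma 0 (12.5%) and the Xist covariate 2 (17.9%). Libraries with more Xist there gave 0 higher (10.4%) and 2 lower (12.2%). In Cpt1a-deficient high-fat mice (13 higher) limma gave 31 (32.6%), no filter 8 (4.7%), libraries with more Xist 2 (3.95%) and those with more Ddx3y 6 (8.23%). Without 1 library each in turn, the counts ran from 10 to 14 higher and 0 to 2 lower over all libraries, 2 to 7 in wild-type control, 1 to 8 in wild-type high-fat, 0 to 2 higher and 0 to 4 lower in Cpt1a-deficient control and 4 to 15 in Cpt1a-deficient high-fat mice. In wild-type control mice the count was 2 without stem cell library c or d or progenitor library b, and 3 without stem cell library a or progenitor library c. In wild-type high-fat mice it was 1 without stem cell library d, 2 without stem cell library c or progenitor library b, and 8 without stem cell library a. In Cpt1a-deficient control mice Cenpf lost its call without stem cell library c or d or progenitor library b, and 4 genes were lower without progenitor library c. All counts for diet, genotype and the interactions stayed at 0 under every alternative run and every left-out library. The centred fit, the term for the split and the population by diet term within each genotype were chosen after seeing the data.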
